A study of Mus musculus with 8 samples.

Results

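The genes described here are 37 genes of glucose metabolism and of the response to low oxygen, out of 23354 gene symbols in the files. They were listed by name, from the steps of glycolysis, lactate export, the pentose phosphate pathway and the targets of hypoxia-inducible factor (HIF), and each had 1 row in every library. Expression was measured by RNA sequencing in macrophages grown for 7 days from bone marrow of 8-week-old C57BL/6J mice in medium conditioned by L929 cells, a fibroblast line that secretes the macrophage growth factor M-CSF. The 4 groups, with 2 libraries each, were Ern1f/fLyz2-Cre with IL-4, Ern1f/fLyz2-Cre control, Ern1f/f with IL-4 and Ern1f/f control. IL-4, a cytokine of type 2 immunity that drives alternative activation, was given at 20 ng/ml for 24 hours. All mice carried a floxed Ern1 gene, which encodes the endoplasmic reticulum stress sensor IRE1α, and Ern1f/fLyz2-Cre mice also carried Cre recombinase expressed from the myeloid lysozyme locus Lyz2. The groups follow the titles of the libraries. A separate genotype field in the labels gives Ern1f/fLyz2-Cre for each library numbered 2 and Ern1f/f for each numbered 1, which goes against 4 of the 8 titles. Read by that field, the 2 genotypes and the 2 numbers cannot be told apart.

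Glycolysis splits glucose into pyruvate, which is either oxidised in mitochondria or reduced to lactate and exported. Its committed step is carried out by 6-phosphofructo-1-kinase, which is activated by fructose 2,6-bisphosphate, and the pentose phosphate pathway branches off above that step to make NADPH and ribose. HIF-1α is hydroxylated by oxygen-dependent prolyl hydroxylases and degraded when oxygen is present, and otherwise raises the transcription of many glycolytic genes. Macrophages activated with bacterial products are known for strong glycolysis and HIF-1α activity, and those activated with IL-4 for oxidative metabolism.

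Values are FPKM, fragments scaled by transcript length and library size, so that levels can be set side by side between genes. Depth, inferred from the width of the deposited confidence intervals, was 21530000 to 37920000 fragments per library. All 10 macrophage markers were expressed, at a summed level of 2343 to 3221 FPKM. Of markers of other blood cells, 3 of 9 neutrophil, 1 of 5 B cell, 1 of 6 T or NK cell, 0 of 5 erythroid and 0 of 4 mast cell or basophil genes reached 1 FPKM in 2 libraries. Lyz2 itself was lower in each Ern1f/fLyz2-Cre library than in the Ern1f/f library of the same treatment and number, with a wider gap in number 2. With IL-4 it was listed at 1572 against 11961 FPKM in number 2 and 5780 against 8902 FPKM in number 1. In controls it was at 2171 against 17415 FPKM in number 2 and 10949 against 18114 FPKM in number 1. Ern1 was at 7.43 to 14.3 FPKM in Ern1f/fLyz2-Cre and 9.11 to 11.5 FPKM in Ern1f/f libraries. A gene-level value of Ern1 does not check a deletion of some exons. Libraries that share a replicate number deviated from their group means together (r = 0.688 to 0.827 across genes, over 6 pairs of groups). Each difference was therefore tested by limma without and with the replicate number as a block, and a gene is called where its adjusted p (Benjamini-Hochberg, over 10934 genes) is under 0.05. Nothing in the labels says whether the 2 libraries of a group came from separate animals, so p-values measure the spread between these libraries, which may be technical.

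Levels within the pathway ran from 0 FPKM (Fbp1) to 1091 FPKM (Aldoa). The enzymes from aldolase to lactate dehydrogenase were among the most abundant. Aldoa, the main aldolase here, had a median of 870 FPKM over the 8 libraries, Gapdh, glyceraldehyde-3-phosphate dehydrogenase, 846 FPKM, and Ldha, the muscle-type subunit of lactate dehydrogenase, 418 FPKM. Pgam1 (290 FPKM), Pgk1 (246 FPKM), Eno1 (206 FPKM), Tpi1 (164 FPKM) and Gpi1 (155 FPKM) followed. Among the hexokinases, which trap glucose in the cell, Hk3 ranged from 121 to 190.3 FPKM, above Hk1 at 23.7 to 30.2 FPKM and Hk2 at 19.5 to 25.6 FPKM, with no overlap. The glucose transporter Slc2a1 stood at 21.7 to 33.8 FPKM. Aldoc and Eno2, which are best known as brain isozymes, stayed at or below 11.9 and 4.92 FPKM. Several of the abundant enzymes, such as Gapdh and Eno1, have processed copies elsewhere in the genome, and gene-level values may not separate their reads.

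Of the pentose phosphate enzymes, Taldo1 (transaldolase), Pgd (6-phosphogluconate dehydrogenase), Pgls (6-phosphogluconolactonase), Tkt (transketolase) and G6pdx (glucose-6-phosphate dehydrogenase, the entry step) had medians of 304, 187, 144, 143 and 89.1 FPKM. Rpia, which interconverts ribulose and ribose 5-phosphate, was far lower at 6.44 FPKM. Hif1a itself had a median of 15.8 FPKM, and the prolyl hydroxylase Egln1 11.5 FPKM. P4ha1, a collagen prolyl hydroxylase, was at 16.8 to 20.9 FPKM, and Bnip3l, a mitophagy receptor, at 30.8 to 44.8 FPKM. The pyruvate dehydrogenase kinases Pdk1 and Pdk3, which hold pyruvate back from mitochondria, had medians of 6.26 and 4.79 FPKM. The gluconeogenic enzyme Fbp1 did not exceed 0.432 FPKM and was listed at 0 in 3 libraries. Egln3, a prolyl hydroxylase induced by HIF, reached 1 FPKM only in Ern1f/fLyz2-Cre control replicate 2, at 3.57 FPKM. Fbp1 and Egln3 failed the filter of 1 FPKM in 2 libraries, which leaves 35 genes in the tests.

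**Figure D1:**
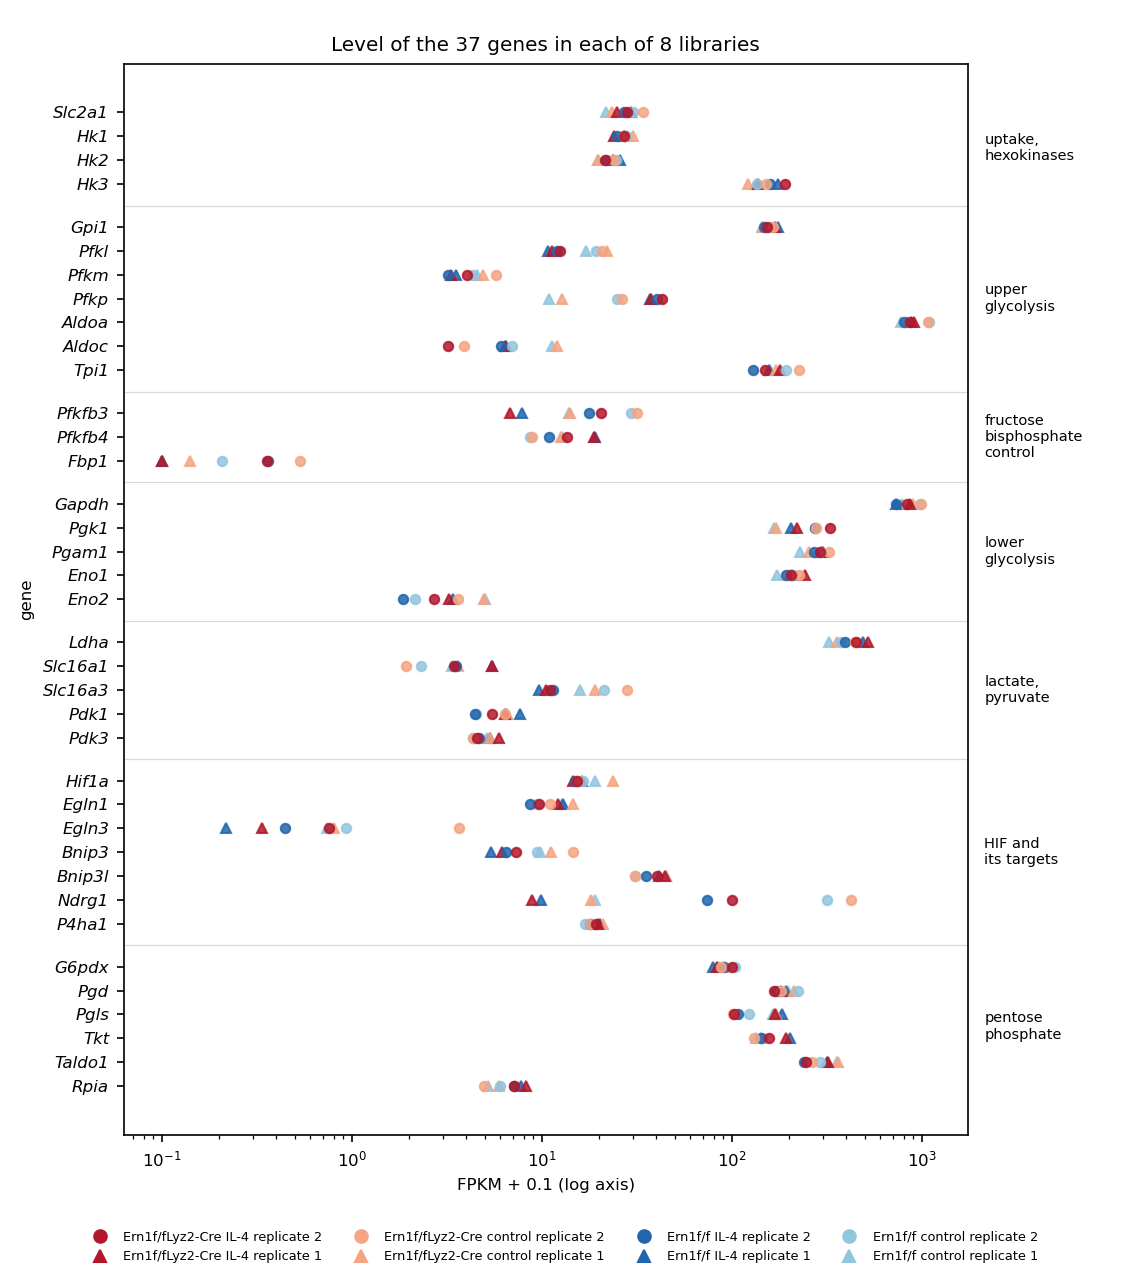
Each row is 1 gene, grouped by role, and each mark is 1 library, at its FPKM + 0.1 on a log axis; circles are libraries numbered 2 and triangles libraries numbered 1, and colours give the group. The highest library exceeds the lowest by a median of 1.66 times over the 36 genes never listed at 0, from 1.22 times for Gpi1 (143 to 175 FPKM) to 48.4 times for Ndrg1 (8.75 to 424 FPKM), which parts by replicate number.

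IL-4 did not move the pathway in 1 direction. Averaged over the genotypes, 10 of the 35 tested genes passed with the replicate block, 4 higher and 6 lower, against 12.7% of all genes tested. Without the block 1 passed (Pfkl), against 0.841% of all genes. When 1 library was left out, 4 to 9 genes passed with the block, 4 of them without Ern1f/f control replicate 1 or Ern1f/fLyz2-Cre IL-4 replicate 1 and 6 without Ern1f/fLyz2-Cre IL-4 replicate 2. The median log2 difference of the 35 genes was -0.01, and that of all genes -0.03. Within 3 families, 1 member rose and another fell: the 6-phosphofructo-1-kinases, the 6-phosphofructo-2-kinases and the monocarboxylate transporters. Proliferation markers, all 10 of them expressed, had summed levels of 442 to 535 FPKM in IL-4 libraries and 260.2 to 316 FPKM in control libraries. Most of that sum was Pcna, at 341 to 449 FPKM in IL-4 libraries and 196 to 230.2 FPKM in controls. All 10 were higher with IL-4 in both genotypes in libraries numbered 2, against 7 (Ern1f/fLyz2-Cre) and 6 (Ern1f/f) in number 1, and 5 were higher in all 4 pairs. Their part in the differences below was not tested. In these bulk samples, fewer cells that express a gene and less RNA per cell cannot be told apart.

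The 6-phosphofructo-1-kinase genes Pfkp, Pfkl and Pfkm encode the platelet, liver and muscle subunits, which form the tetramers that commit sugar to glycolysis. Pfkp had 42.8 and 37.4 FPKM in Ern1f/fLyz2-Cre IL-4 libraries (numbers 2 and 1) and 40.0 and 37.1 FPKM in Ern1f/f IL-4 libraries, against 26.3 and 12.7 FPKM in Ern1f/fLyz2-Cre control and 24.7 and 10.8 FPKM in Ern1f/f control libraries. All 4 IL-4 libraries lay above all 4 controls. The IL-4 libraries lay close together, and the controls were lower in libraries numbered 1. Pfkp rose with IL-4 by a log2 difference of 1.14 ± 0.19 (SE) with the block (adjusted p = 0.0147 by limma; 0.198 without the block).

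Pfkl moved the other way. It had 12.4 and 11.2 FPKM in Ern1f/fLyz2-Cre IL-4 and 11.9 and 10.6 FPKM in Ern1f/f IL-4 libraries, against 20.6 and 21.9 FPKM in Ern1f/fLyz2-Cre control and 19.2 and 16.9 FPKM in Ern1f/f control libraries. The groups did not overlap, and Pfkl fell in both fits (log2 -0.72 ± 0.08 with the block, adjusted p = 0.00381; 0.0363 without it, by limma). Pfkm, the least abundant of these genes, had 3.95 and 3.24 FPKM in Ern1f/fLyz2-Cre IL-4 and 3.10 and 3.41 FPKM in Ern1f/f IL-4 libraries, against 5.60 and 4.82 FPKM in Ern1f/fLyz2-Cre control and 4.24 and 4.46 FPKM in Ern1f/f control libraries. It fell as well (log2 -0.38 ± 0.09, blocked adjusted p = 0.0402 by limma; 0.177 without the block). The make-up of the family therefore differed: Pfkp made up 72.2% to 72.7% of the summed FPKM of these genes in the 4 IL-4 libraries and 32.2% to 51.3% in the 4 controls. The summed level was 51.2 to 59.1 FPKM in IL-4 libraries and 32.1 to 52.5 FPKM in controls, which overlap.

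The call of Pfkl with the block was kept in each of the 8 fits that left out 1 library, and ended without any 1 library in the fit without the block. Pfkp was not called without Ern1f/f control replicate 1 (blocked adjusted p = 0.0579) or without Ern1f/fLyz2-Cre IL-4 replicate 1 (0.0763). Pfkm was not called without any 1 of the 8 libraries (0.0668 to 0.151).

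The promoters of Pfkp and Pfkl are shown because these genes moved in opposite directions, from 250 bases before to 50 bases after the start (RefSeq, GRCm38.p6). The table of such windows had 35 of the 37 genes, without Ndrg1 and Bnip3l. The core of the hypoxia response element was searched as ACGTG or GCGTG on both strands, and a palindrome CACGTG counts on each strand. It was present in at least 1 window of 31 of the 35 genes (88.6%), against 46.7% of all 27025 genes of the table. The core holds CpG, and the windows of these genes held a median of 20 CpG sites, against 7 in all windows. A match is a description of letters, since no binding was measured. Pfkp (chr13:6648722-6649021, minus strand) held 4 cores and Pfkl (chr10:78009758-78010057, minus strand) 1, given 5′ to 3′ with the cores in capitals.
Pfkp: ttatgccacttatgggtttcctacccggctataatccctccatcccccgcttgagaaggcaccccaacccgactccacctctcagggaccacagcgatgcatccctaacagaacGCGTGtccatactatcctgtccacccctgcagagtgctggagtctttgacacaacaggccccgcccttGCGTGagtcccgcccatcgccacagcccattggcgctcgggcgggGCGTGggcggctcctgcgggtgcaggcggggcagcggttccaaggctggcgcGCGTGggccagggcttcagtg
Pfkl: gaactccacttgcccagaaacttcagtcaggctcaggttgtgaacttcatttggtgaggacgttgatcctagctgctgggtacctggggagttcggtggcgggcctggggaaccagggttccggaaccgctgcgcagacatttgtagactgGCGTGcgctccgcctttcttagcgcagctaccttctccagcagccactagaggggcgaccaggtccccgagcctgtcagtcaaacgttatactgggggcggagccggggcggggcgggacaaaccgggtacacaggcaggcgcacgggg

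The 6-phosphofructo-2-kinases make fructose 2,6-bisphosphate, the activator of the step above. Pfkfb4 had 13.4 and 18.8 FPKM in Ern1f/fLyz2-Cre IL-4 and 10.8 and 18.9 FPKM in Ern1f/f IL-4 libraries, against 8.77 and 12.5 FPKM in Ern1f/fLyz2-Cre control and 8.58 and 12.7 FPKM in Ern1f/f control libraries (numbers 2 and 1). Within each number IL-4 was above control in both genotypes, while the groups overlapped across numbers. Pfkfb4 rose by 0.49 ± 0.08 (log2, SE; blocked adjusted p = 0.0142 by limma, 0.45 without the block). Pfkfb3, the isozyme with the highest kinase relative to phosphatase activity, had 20.3 and 6.71 FPKM in Ern1f/fLyz2-Cre IL-4 and 17.7 and 7.76 FPKM in Ern1f/f IL-4 libraries, against 31.5 and 13.9 FPKM in Ern1f/fLyz2-Cre control and 29.4 and 13.8 FPKM in Ern1f/f control libraries. It fell in every pair, by 0.76 ± 0.09 (log2; blocked adjusted p = 0.00586 by limma, 0.58 without the block). Pfkfb4 made up 39.7% and 73.7% of the 2 genes' summed FPKM in Ern1f/fLyz2-Cre IL-4 and 37.9% and 70.9% in Ern1f/f IL-4 libraries, against 21.8% and 47.3% in Ern1f/fLyz2-Cre control and 22.6% and 47.9% in Ern1f/f control libraries. Leaving out 1 library at a time, Pfkfb3 kept its call in 8 of 8 fits and Pfkfb4 in 2 of 8, those without Ern1f/f IL-4 replicate 2 and without Ern1f/fLyz2-Cre control replicate 2 (the other 6 gave 0.0511 to 0.0651).

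Lactate leaves and enters cells through monocarboxylate transporters. Slc16a1 encodes MCT1, which carries lactate and pyruvate both ways, and Slc16a3 encodes MCT4, which exports lactate from glycolytic cells. Slc16a3 had 10.9 and 10.4 FPKM in Ern1f/fLyz2-Cre IL-4 and 11.4 and 9.50 FPKM in Ern1f/f IL-4 libraries, against 28.0 and 18.9 FPKM in Ern1f/fLyz2-Cre control and 21.0 and 15.7 FPKM in Ern1f/f control libraries. No IL-4 library reached the lowest control. Slc16a3 fell by 0.90 ± 0.10 (log2, SE; blocked adjusted p = 0.00358 by limma, 0.0847 without the block). Slc16a1 had 3.33 and 5.38 FPKM in Ern1f/fLyz2-Cre IL-4 and 3.41 and 5.34 FPKM in Ern1f/f IL-4 libraries, against 1.82 and 3.49 FPKM in Ern1f/fLyz2-Cre control and 2.21 and 3.26 FPKM in Ern1f/f control libraries. Each IL-4 library exceeded the control of its genotype and number, and Slc16a1 rose by 0.54 ± 0.08 (log2; blocked adjusted p = 0.0109 by limma, 0.394 without the block). Its share of the 2 genes' summed FPKM was 23.1% to 36.0% in IL-4 libraries and 6.10% to 17.1% in controls, with no overlap. Slc16a3 was called in all 8 fits that left out 1 library. Slc16a1 was not called without Ern1f/f control replicate 1 (0.0563) or Ern1f/fLyz2-Cre IL-4 replicate 1 (0.0552).

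Both transporter promoters held the core, again shown for their opposite differences. Slc16a1 (chr3:104638414-104638713, plus strand) held 5 matches and Slc16a3 (chr11:120948817-120949116, plus strand) 2.
Slc16a1: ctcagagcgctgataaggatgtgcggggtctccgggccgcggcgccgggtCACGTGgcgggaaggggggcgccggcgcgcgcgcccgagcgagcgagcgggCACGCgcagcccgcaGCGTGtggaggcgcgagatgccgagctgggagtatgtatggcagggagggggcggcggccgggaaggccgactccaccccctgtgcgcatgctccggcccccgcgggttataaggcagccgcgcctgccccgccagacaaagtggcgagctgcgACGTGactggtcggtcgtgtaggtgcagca
Slc16a3: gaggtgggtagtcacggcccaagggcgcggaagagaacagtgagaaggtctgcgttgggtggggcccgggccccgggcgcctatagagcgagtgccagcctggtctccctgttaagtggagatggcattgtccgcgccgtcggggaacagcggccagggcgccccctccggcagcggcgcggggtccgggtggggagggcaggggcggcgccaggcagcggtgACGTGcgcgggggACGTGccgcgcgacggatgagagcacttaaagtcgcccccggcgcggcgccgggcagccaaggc

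**Figure D2:**
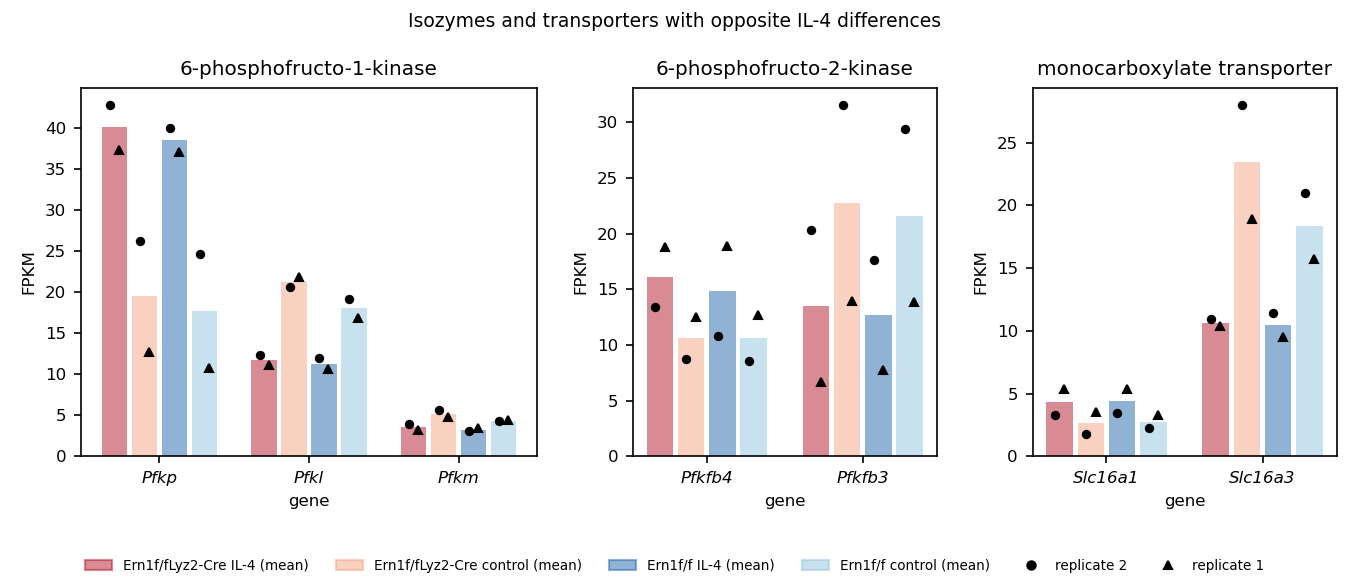
FPKM of those of the 37 genes that belong to the 3 families in which members moved in opposite directions. Bars are the mean of a group's 2 libraries, and marks are single libraries. With IL-4, Pfkp, Pfkfb4 and Slc16a1 are higher and Pfkl, Pfkm, Pfkfb3 and Slc16a3 lower than in the control of the same genotype and number; Pfkp stands at 37.1 to 42.8 FPKM with IL-4 in both genotypes.

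The other genes of pyruvate and lactate were not called. Ldha differed by 0.31 on the log2 scale (blocked adjusted p = 0.162 by limma), Pdk3 0.08 (0.491) and Pdk1 -0.01 (0.969). Ldha was higher with IL-4 in every pair, at 450.4 and 520.8 FPKM in Ern1f/fLyz2-Cre IL-4 and 395 and 489.9 FPKM in Ern1f/f IL-4 libraries, against 441 and 356 FPKM in Ern1f/fLyz2-Cre control and 377 and 326 FPKM in Ern1f/f control libraries.

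Of the 6 tested genes of HIF and its targets, 2 fell and 0 rose, where 12.7% of all genes were called in this blocked fit. Bnip3, a mitophagy receptor that HIF-1α induces, had 7.22 and 6.06 FPKM in Ern1f/fLyz2-Cre IL-4 and 6.39 and 5.28 FPKM in Ern1f/f IL-4 libraries, against 14.5 and 11.02 FPKM in Ern1f/fLyz2-Cre control and 9.29 and 9.70 FPKM in Ern1f/f control libraries. The groups did not overlap (log2 -0.73 ± 0.09, blocked adjusted p = 0.00571 by limma; 0.0731 without the block). Ndrg1, a stress-responsive gene that hypoxia induces, had 99.9 and 8.75 FPKM in Ern1f/fLyz2-Cre IL-4 and 73.6 and 9.79 FPKM in Ern1f/f IL-4 libraries, against 424 and 18.0 FPKM in Ern1f/fLyz2-Cre control and 316 and 18.9 FPKM in Ern1f/f control libraries. It fell in every pair (log2 -1.50 ± 0.26, blocked adjusted p = 0.0156 by limma; 0.757 without the block), although each library numbered 2 held more than any library numbered 1. Hif1a, which is controlled largely at the protein level, differed by -0.26 (blocked adjusted p = 0.18). Egln1 differed by -0.13, Bnip3l by 0.10 and P4ha1 by 0.05, none of them called. Egln3, not tested, had 0.654 and 0.234 FPKM in Ern1f/fLyz2-Cre IL-4 and 0.341 and 0.118 FPKM in Ern1f/f IL-4 libraries, against 3.57 and 0.706 FPKM in Ern1f/fLyz2-Cre control and 0.83 and 0.636 FPKM in Ern1f/f control libraries. Bnip3 kept its call in all 8 fits without 1 library. Ndrg1 lost it without Ern1f/f control replicate 1 (0.0563) or 2 (0.0704) and without Ern1f/fLyz2-Cre IL-4 replicate 1 (0.0679) or 2 (0.0752). The promoter of Bnip3 (chr7:138909457-138909756, minus strand), shown as that of the HIF target whose call was kept, held 5 matches.
Bnip3: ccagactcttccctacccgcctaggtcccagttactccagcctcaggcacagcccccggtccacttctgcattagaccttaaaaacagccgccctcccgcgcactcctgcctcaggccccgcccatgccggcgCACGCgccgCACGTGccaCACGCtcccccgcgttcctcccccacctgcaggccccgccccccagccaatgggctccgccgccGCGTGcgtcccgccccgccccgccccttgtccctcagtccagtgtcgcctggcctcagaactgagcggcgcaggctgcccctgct

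In the pentose phosphate pathway 1 of 6 genes was called, a share near the 12.7% of all genes. Rpia had 6.98 and 8.14 FPKM in Ern1f/fLyz2-Cre IL-4 and 7.06 and 7.67 FPKM in Ern1f/f IL-4 libraries, against 4.83 and 5.81 FPKM in Ern1f/fLyz2-Cre control and 5.90 and 5.07 FPKM in Ern1f/f control libraries, with no overlap. It rose by 0.40 ± 0.09 (log2, SE; blocked adjusted p = 0.0372 by limma, 0.177 without the block). The call held only without Ern1f/f control replicate 2 among the 8 fits that left out 1 library (the other 7 gave 0.0656 to 0.134). The other 5 enzymes had log2 differences of -0.19 (Pgd) to 0.32 (Tkt), with blocked adjusted p of 0.122 to 0.948.

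For several genes the difference with IL-4 had opposite signs in the 2 replicate numbers, although none of them passed the test of that difference given below. Slc2a1, Hk2, Gpi1, Aldoa, Pgam1 and Eno1 were lower with IL-4 in libraries numbered 2 and higher with IL-4 in libraries numbered 1, in both genotypes. For Aldoa the log2 differences were -0.30 (Ern1f/fLyz2-Cre) and -0.44 (Ern1f/f) in number 2, and 0.12 and 0.16 in number 1. For Hk2 they were -0.15 and -0.17 in number 2, and 0.25 and 0.37 in number 1. Averages over the numbers were therefore near 0 for these genes (-0.12 to 0.09), and none was called. Bnip3l was higher in number 2 (0.38 and 0.18) and lower in number 1 (-0.02 and -0.12). Averaged over genotypes, 10 of the 35 genes were higher and 15 lower with IL-4 in both numbers, against 29.1% and 37.4% of all genes.

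The difference between the responses was tested over all genes in a model with the 4 means of treatment by number and a term for genotype, which was added after these values had been seen. Only Pfkp passed among the 35 genes, against 0.787% of all genes. Its response in number 2 minus that in number 1 was -0.91 ± 0.13 (log2, SE; adjusted p = 0.0343 by limma). The response was 0.68 in both genotypes in number 2, and 1.49 (Ern1f/fLyz2-Cre) and 1.70 (Ern1f/f) in number 1. No gene of the 35 passed when any 1 library was left out. The other differences included Ndrg1 at -1.16 ± 0.23 (adjusted p = 0.0838 by limma), Tpi1 at -0.60 ± 0.13 (0.0996), Ldha at -0.52 ± 0.14 (0.145) and Hk2 at -0.47 ± 0.12 (0.139). Of the 35 genes, 24 had a negative difference (median -0.12), against 45.9% of all genes (median 0.03). The libraries also differed by number in 10 stromal markers, 9 of them expressed. Their summed level was 80.8 and 35.5 FPKM with IL-4 and 13.9 and 18.5 FPKM in controls in number 2 (Ern1f/fLyz2-Cre, then Ern1f/f), and 439.7 and 177 FPKM with IL-4 and 933 and 378 FPKM in controls in number 1. The higher sum with IL-4 in number 2 came from Fn1, fibronectin, at 76.9 and 22.8 FPKM with IL-4 and 7.72 and 3.46 FPKM in controls. Without Fn1 the sums were 3.84 and 12.7 FPKM with IL-4 and 6.21 and 15.1 FPKM in controls in number 2, and 370.6 and 134.0 FPKM with IL-4 and 806.8 and 316.9 FPKM in controls in number 1. The part of these cells in the differences by number was not tested. Levels of 6 alternative activation markers summed to 9460 and 5132 FPKM with IL-4 in number 2, and 1217 and 1043 FPKM in controls. In number 1, in the same order, the sums were 2417 and 2033 FPKM with IL-4 and 55.8 and 42.8 FPKM in controls. Chi3l3 made up most of the number 2 control sums, at 1088 and 999 FPKM, against 0.407 and 0.844 FPKM in number 1. Retnla was also higher in number 2 controls (87.7 and 12.1, against 0.222 and 0.323 FPKM). So were Arg1 (1.15 and 0.685, against 0.0611 and 0.0444 FPKM) and Cish (0.763 and 1.05, against 0.521 and 0.454 FPKM). Irf4 was lower in Ern1f/fLyz2-Cre and higher in Ern1f/f controls of number 2 (0.468 and 0.504, against 0.598 and 0.383 FPKM). Mrc1 was lower in number 2 controls (39.0 and 29.4, against 54.0 and 40.8 FPKM). The part of these markers was not tested either.

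**Figure D3:**
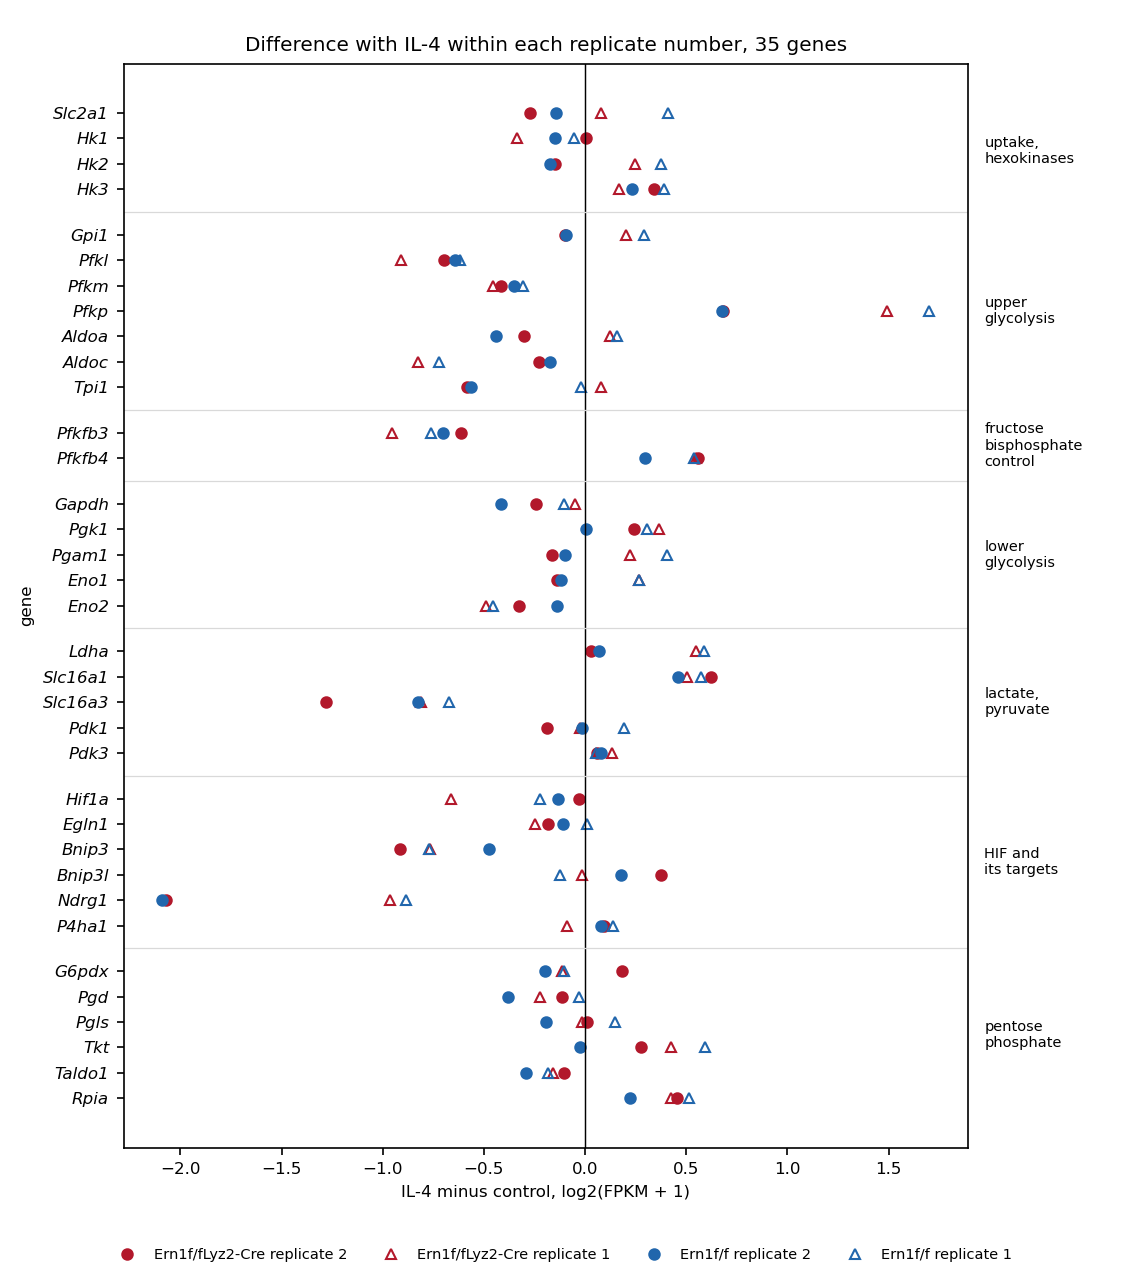
Each row is 1 of the 35 tested genes and each mark the log2(FPKM + 1) of an IL-4 library minus that of the control with the same genotype and replicate number; filled circles are number 2 and open triangles number 1. Within number 1 the genotypes lie apart for Hif1a (-0.66 in Ern1f/fLyz2-Cre and -0.22 in Ern1f/f), and for Hk2, Gpi1, Aldoa, Pgam1 and Eno1 the circles lie left of 0 and the triangles right of it.

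Within each genotype fewer genes passed. In Ern1f/fLyz2-Cre cells 4 of 35 genes fell with IL-4 in the blocked fit (3.32% of all genes were called) and 0 without the block (0.0549%). Slc16a3 fell by 1.05 (log2; blocked adjusted p = 0.0169 by limma), Pfkl by 0.80 (0.0191), Bnip3 by 0.84 (0.0259) and Pfkfb3 by 0.78 (0.0348). In Ern1f/f cells 1 gene passed with the block (2.12% of all genes) and 0 without it (0% of all genes, with 673 at an unadjusted p under 0.05). Pfkl fell there by 0.63 (blocked adjusted p = 0.0447), while Slc16a3 differed by -0.75 (0.0507) and Bnip3 by -0.62 (0.0658). These counts rest on single libraries: the 4 became 0 without Ern1f/fLyz2-Cre IL-4 replicate 1 or 2 and 1 without Ern1f/fLyz2-Cre control replicate 1 or 2. The call of Pfkfb3 was lost without any 1 of the 8 libraries (0.0501 to 0.19). The call of Pfkl in Ern1f/f cells held only without Ern1f/fLyz2-Cre control replicate 1.

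No gene of the 35 was called for a difference between the genotypes in the response to IL-4. In Ern1f/fLyz2-Cre minus Ern1f/f cells, the responses differed by -0.17 for Pfkl (95% confidence interval with the block -0.545 to 0.202), -0.30 for Slc16a3 (-0.756 to 0.163) and -0.22 for Bnip3 (-0.645 to 0.211), the 3 genes with the smallest p by limma without the block. Of all genes 0% were called with and without the block, and 103 and 19 had an unadjusted p under 0.05.

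Genotype changed none of the 35 genes past the threshold, in control cells, with IL-4 or averaged over treatments. Over all genes 0% were called in control cells in both fits (at an unadjusted p under 0.05 there were 27 genes in the fit lacking the block and 137 in the blocked fit). With IL-4, 0% were called without the block and 0.00915%, which is 1 gene, with it (42 and 189 with an unadjusted p under 0.05). In control cells Bnip3 had 14.5 and 11.02 FPKM in Ern1f/fLyz2-Cre libraries and 9.29 and 9.70 FPKM in Ern1f/f libraries, a log2 difference of 0.38 ± 0.17 (SE; adjusted p = 1 by limma in both fits). The other genes with the smallest p were Pfkl (0.23 ± 0.13) and Pfkm (0.21 ± 0.14), at the same adjusted p. With IL-4 they were Gapdh (0.21 ± 0.15), Tpi1 (0.21 ± 0.21) and Eno1 (0.16 ± 0.16). In control cells 16 of 35 genes were higher in Ern1f/fLyz2-Cre libraries in both numbers and 1 was lower in both, against 23.3% and 18.8% of all genes, and their median log2 difference was 0.05. With IL-4 the counts were 12 higher and 4 lower, against 28.8% and 17.3% of all genes, with a median of 0.04. Averaged over treatments 0% of all genes were called in both fits.

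Libraries numbered 2 and libraries numbered 1 differed in several genes of the pathway. Of 35 genes 13 (37.1%) passed for number 2 against number 1, a share near the 33.4% of all genes that were called. Among them 4 were higher in number 2. Ndrg1 had 73.6 to 424 FPKM in the 4 libraries numbered 2 and 8.75 to 18.9 FPKM in the 4 numbered 1 (log2 3.66 ± 0.26, adjusted p = 0.000371 by limma). Pfkfb3 was at 17.7 to 31.5 FPKM in number 2 and 6.71 to 13.9 FPKM in number 1 (log2 1.18 ± 0.09, adjusted p = 0.000547). Pgk1, phosphoglycerate kinase, was at 272 to 327 and 166 to 220 FPKM (log2 0.60, adjusted p = 0.00405), and Slc16a3 had a log2 difference of 0.31 (0.0482). The 9 lower ones were Aldoc (-0.74), Pgls (-0.66), Pfkfb4 (-0.55), Slc16a1 (-0.54), Eno2 (-0.54), Egln1 (-0.40), Taldo1 (-0.39), Bnip3l (-0.36) and Pdk3 (-0.23), with adjusted p of 0.00327 to 0.0482 by limma. Over all genes the median difference was -0.11. In 2 of the 3 families that parted with IL-4, members also parted here: Pfkfb3 and Slc16a3 were higher and Pfkfb4 and Slc16a1 lower in number 2, while Pfkp, Pfkl and Pfkm were not called. The labels do not say what the number marks. Leaving out 1 library gave 8 to 11 called genes, and 8 of them without Ern1f/f control replicate 1 or 2.

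**Figure D4:**
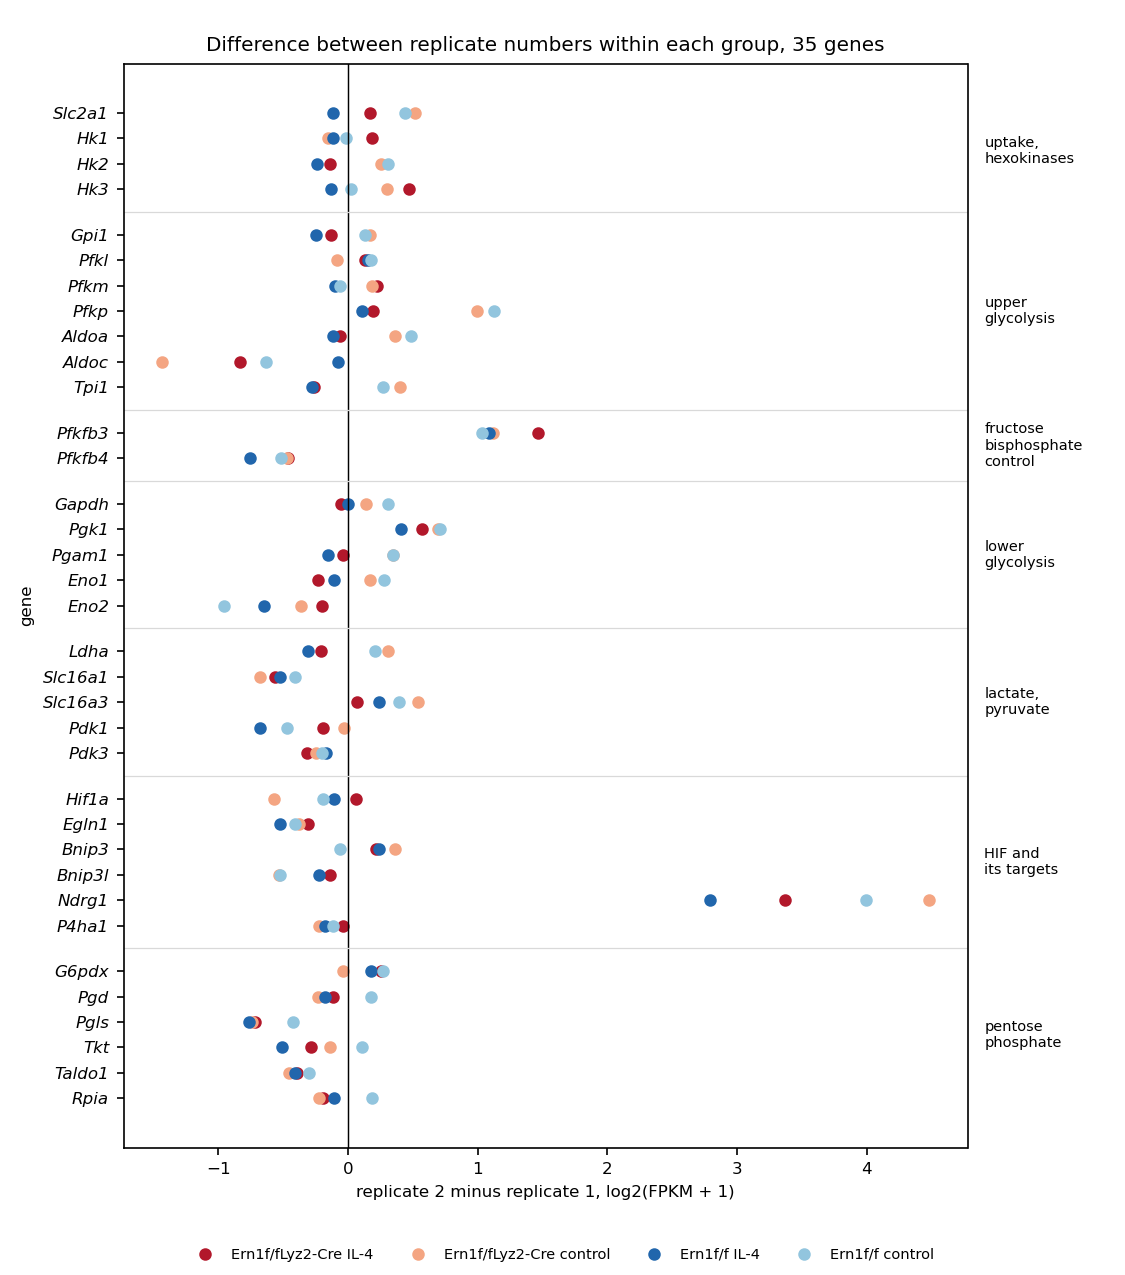
Each row is 1 of the 35 tested genes and each dot the log2(FPKM + 1) of the library numbered 2 minus that of the library numbered 1 in the same group. Ndrg1 lies right of 2 in all 4 groups and Pfkfb3 near 1, while Pfkfb4, Slc16a1, Egln1, Pgls and Taldo1 lie left of 0 in all 4.

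The wider pathway was read from 84 further genes of glycolysis, pyruvate, pentose phosphate and hypoxia, of which 71 were tested. Averaged over genotypes 6 rose and 9 fell with IL-4 in the blocked fit, where 12.7% of all genes were called. Of these, only the ones with the smallest p by limma without the block are named below. The median was -0.13 over the 71, against -0.03 over all genes. Prps1, which turns ribose 5-phosphate into the precursor of nucleotides, had 17.1 and 15.6 FPKM in Ern1f/fLyz2-Cre IL-4 and 12.7 and 13.0 FPKM in Ern1f/f IL-4 libraries, against 2.41 and 4.57 FPKM in Ern1f/fLyz2-Cre control and 4.24 and 4.42 FPKM in Ern1f/f control libraries. It was the only one of the 71 called without the block as well (log2 1.69 ± 0.16, adjusted p = 0.0146 by limma). Prps1 lies downstream of Rpia, whose rise was called only with the block and in 1 of 8 fits that left out 1 library. A link between these genes was not tested. Bhlhe40, a transcriptional repressor that hypoxia induces, rose by 1.32, and Vhl, which targets HIF-1α for degradation, by 0.36 (blocked adjusted p = 0.000986 and 0.0191 by limma).

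Lower with IL-4 were Vegfa, the angiogenic growth factor and HIF target (log2 -1.27, blocked adjusted p = 0.00662 by limma), and Ddit4, a stress-induced inhibitor of mTORC1 (-0.69, 0.0384). Pygl, glycogen phosphorylase, fell by 0.67 (0.00401), Plod1, a collagen lysyl hydroxylase, by 0.60 (0.00766) and Mif, a cytokine gene, by 0.47 (0.0376). Vegfa had 5.33 and 5.97 FPKM in Ern1f/fLyz2-Cre IL-4 and 3.84 and 7.68 FPKM in Ern1f/f IL-4 libraries, against 12.01 and 18.1 FPKM in Ern1f/fLyz2-Cre control and 9.50 and 22.8 FPKM in Ern1f/f control libraries, with no overlap. Of the 30 tested hypoxia genes outside the 37, 2 rose and 5 fell, against the same 12.7% of all genes. None of the 71 genes was called for genotype or for the difference of the responses. Between the replicate numbers 11 were higher and 14 lower in number 2, a share near the 33.4% of all genes, led by Loxl2 (log2 -2.65), Bhlhe40 (-0.65), Slc2a8 (-0.52), Ero1l (0.58), Pdk4 (-1.77), Nos2 (1.46), G6pc3 (-0.47) and Slc2a6 (0.69), with adjusted p of 0.00252 to 0.012 by limma. Loxl2 was at 2.80 to 15.5 FPKM in number 1 and 0.0969 to 0.394 FPKM in number 2. Pdk4 was at 0.745 to 6.44 FPKM in number 1 and 0 to 0.0663 FPKM in number 2. The summed stromal markers were also higher in number 1, and the part of stromal cells in these values was not tested.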

How the data were processed

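The deposited files hold gene-level FPKM made by the authors with a confidence interval, and the submitters' processing notes name Cufflinks 1.3.0, TopHat 1.4.1 and the mm10 build. Where the gene models came from is not given in the sources used here. Read counts were not used, and the intervals served only to infer depth. Rows of a symbol were summed, and log2(FPKM + 1) was fitted by limma 3.58.1 in R 4.3.3 (4 group means, eBayes with trend, two-sided) for 10934 genes that reached 1 FPKM in 2 or more libraries. Differences on this scale understate changes of low genes. The replicate number was added as a block, since every pair of groups had r over 0.1 and the numbers lay apart on principal component 1 (59% of the variance); the source of the pairing is these data and not the labels. The genes and lists were chosen with earlier results of these data known. Genes past the threshold in either fit were named, or else the 3 with the smallest p. The fits were tested on simulated data. Plots used Python 3.11.15 and matplotlib 3.10.9.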

Additional observations from a re-analysis of the deposited data

Results flagged for a closer look

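In 7 genes the difference with IL-4 had opposite signs in libraries numbered 2 and libraries numbered 1, in both genotypes. Opposite signs in both genotypes were not counted over all genes. Averaged over genotypes, 10 of the 35 genes were higher and 15 lower with IL-4 in both numbers, against 29.1% and 37.4% of all genes. The response in number 2 minus that in number 1 was -0.51 for Aldoa (adjusted p = 0.163 by limma), -0.47 for Hk2 (0.139), -0.45 for Slc2a1 (0.239), -0.44 for Pgam1 (0.192), -0.40 for Eno1 (0.217), -0.34 for Gpi1 (0.26) and 0.35 for Bnip3l (0.263), on the log2 scale. Pfkp rose in both numbers and its response differed between them by -0.91 (adjusted p = 0.0343 by limma). For Bnip3l the Ern1f/fLyz2-Cre minus Ern1f/f difference was nominally opposite in sign between the treatments, at 0.19 (number 2) and 0.11 (number 1) with IL-4, but the control values were near 0, at -0.0038 and -0.00024. Its IL-4 response was greater by 0.15 in Ern1f/fLyz2-Cre than in Ern1f/f cells (adjusted p = 1 by limma without and with the block).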

How the results depend on the processing

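Results were recomputed with another pseudocount, no filter on low values, rescaled libraries, no trend, the highest row of each symbol, the replicate block and each library left out. Alternatives applied within the blocked fit and those of the test by number were chosen after seeing the data. With the replicate block, called genes went to 4 from 0 in Ern1f/fLyz2-Cre cells, to 1 from 0 in Ern1f/f cells and to 10 from 1 averaged over genotypes; no call for genotype or for the difference of the responses was gained.

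With no filter the blocked counts were 0 (Ern1f/fLyz2-Cre), 0 (Ern1f/f) and 6 (averaged), and the test by number called 0. Blocked Ern1f/f counts were 3 with pseudocount 0.1, 2 with rescaled libraries and 0 without the trend. The median for genotype in control cells was 0.096 with no filter, against 0.05 with it. Without 1 library, blocked counts were 0 to 4 in Ern1f/fLyz2-Cre, 0 to 2 in Ern1f/f and 4 to 9 averaged; the unblocked averaged count and the test by number gave 0, and number 2 against number 1 gave 8 to 11. Medians without 1 library were -0.0899 to -0.0121 for IL-4 in Ern1f/fLyz2-Cre, -0.0916 to 0.127 in Ern1f/f and -0.145 to 0.0451 averaged. They were 0.0309 to 0.127 for genotype in control cells, -0.0384 to 0.116 with IL-4, 0.0177 to 0.0884 averaged over treatments and -0.12 to 0.0779 for the difference of the responses. Genotype with IL-4 ranged from -0.0125 (without Ern1f/fLyz2-Cre IL-4 replicate 1) to 0.336 for Eno1 and from -0.00246 (without Ern1f/f IL-4 replicate 2) to 0.413 for Tpi1 in the blocked fit. The cause of these changes was not tested. Leaving out a library lowers the number of samples, and dropping the filter raises the number of genes tested.

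Low levels limit what can be said of some genes. Fbp1 and Egln3 failed the filter of 1 FPKM in 2 libraries and were not tested. Pfkm, Slc16a1, Eno2 and Pdk3 lay under 6 FPKM in every library. With 2 libraries a group, a gene that is not called is not shown to be equal.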
